A study of Mus musculus with 87 samples.

Results

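Broad H3K4me3 domains are long, unbroken stretches of chromatin that carry trimethylation of lysine 4 on histone H3. In untreated wild-type (WT) mouse embryonic stem cells (mESCs) 2832 such domains were found among 44920 H3K4me3 regions (6.30%). A region was the union of H3K4me3 peaks that lay within 500 bases of each other in the 3 WT PlaB- peak lists and was held by at least 2 of the lists. A region was called a domain when it was at least 4 kb long and met no H3K27me3 peak of any WT PlaB- list. Of 3134 regions of at least 4 kb, 302 met an H3K27me3 peak and were left out. All 2832 domains were held by all 3 lists. The members were therefore chosen by their H3K4me3 length and by the lack of H3K27me3 in WT PlaB- cells, and these measures are given below as a description, with no test.

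H3K4me3 marks promoters in active or poised chromatin and is written by the SET1 and MLL methyltransferase complexes. At most active genes it forms a short block around the start, and a minority of genes carry it over several kilobases, where it is known to accompany genes of cell identity. H3K27ac, an acetyl mark, is found on active promoters and enhancers, and H3K27me3 is the mark of the Polycomb repressive complex PRC2. In mESCs, regions that hold H3K4me3 and H3K27me3 together are known as bivalent and mostly belong to silent developmental genes, which is why the rule set them apart.

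The histone marks were profiled by CUT&RUN, which releases the DNA around an antibody-bound mark with a tethered nuclease, in 4 groups of EB3 mESCs (129/Ola background) with 3 replicates each: Obox4 KO PlaB+, WT PlaB+, Obox4 KO PlaB- and WT PlaB-. PlaB is pladienolide B, an inhibitor of the SF3B splicing complex, and PlaB+ cells were passaged repeatedly in it until they were taken as totipotent blastomere-like cells. The Obox4 KO line is a CRISPR line in which the Obox4 cluster was deleted on both alleles while a solitary Obox4 copy elsewhere was kept. Obox4 encodes a homeobox transcription factor of the 2-cell (2C) embryo. RNA-seq covered 4 PlaB-treated genotypes with 3 libraries each, namely Obox4 KO, WT, Obox4/Dux double KO and Dux KO (Dux, another 2C-stage activator), and EB3 mESCs in which doxycycline switches on a 3×FLAG-tagged Obox4 transgene, at 0 h, 12 h and 48 h of induction, again with 3 libraries each. The double KO was derived from the Obox4 KO line, and no untreated RNA library of the 4 genotypes was analysed here, so the effect of PlaB on RNA cannot be told apart from that of the line and experiment. OBOX4 peaks came from FLAG CUT&RUN in the induced line. The labels only number the replicates, so the p-values measure the spread between these samples, which may be technical.

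The promoters of 4 domain genes are printed because they span the range of CpG content met among the domains, from a pluripotency gene with few CpGs to a splicing factor with many. Each is the RefSeq promoter on GRCm38.p6, from 250 bases before to 50 bases after the start, written 5′ to 3′ on the gene's strand with each CpG in capitals (motif searched: CG, which reads the same on both strands). Nanog, a homeobox factor of naive pluripotency, lies at chr6:122707239-122707538 (plus strand) and holds 4 CpGs. Pou5f1 (Oct4), the POU factor required for pluripotency, lies at chr17:35505782-35506081 (plus strand) and holds 11 CpGs. Rps28, a protein of the small ribosomal subunit, lies at chr17:33824513-33824812 (minus strand) and holds 24 CpGs. Srsf3, an SR splicing factor, lies at chr17:29032410-29032709 (plus strand) and holds 42 CpGs.
Nanog: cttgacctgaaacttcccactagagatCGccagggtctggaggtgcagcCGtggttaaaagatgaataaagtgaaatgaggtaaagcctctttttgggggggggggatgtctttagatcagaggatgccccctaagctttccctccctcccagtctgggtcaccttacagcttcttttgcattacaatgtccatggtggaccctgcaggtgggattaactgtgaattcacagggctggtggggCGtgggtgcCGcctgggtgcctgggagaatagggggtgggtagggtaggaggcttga
Pou5f1: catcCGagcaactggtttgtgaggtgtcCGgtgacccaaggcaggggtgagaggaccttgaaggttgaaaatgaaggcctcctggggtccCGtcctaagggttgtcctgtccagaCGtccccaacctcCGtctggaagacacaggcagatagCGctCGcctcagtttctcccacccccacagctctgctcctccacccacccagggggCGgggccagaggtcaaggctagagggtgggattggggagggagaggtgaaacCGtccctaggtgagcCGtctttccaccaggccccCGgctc
Rps28: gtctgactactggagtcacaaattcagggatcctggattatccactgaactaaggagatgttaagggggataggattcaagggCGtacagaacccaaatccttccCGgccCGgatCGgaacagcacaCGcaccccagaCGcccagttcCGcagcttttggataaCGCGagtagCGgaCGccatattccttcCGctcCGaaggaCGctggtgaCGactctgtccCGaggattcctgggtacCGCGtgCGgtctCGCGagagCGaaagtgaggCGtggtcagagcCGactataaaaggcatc
Srsf3: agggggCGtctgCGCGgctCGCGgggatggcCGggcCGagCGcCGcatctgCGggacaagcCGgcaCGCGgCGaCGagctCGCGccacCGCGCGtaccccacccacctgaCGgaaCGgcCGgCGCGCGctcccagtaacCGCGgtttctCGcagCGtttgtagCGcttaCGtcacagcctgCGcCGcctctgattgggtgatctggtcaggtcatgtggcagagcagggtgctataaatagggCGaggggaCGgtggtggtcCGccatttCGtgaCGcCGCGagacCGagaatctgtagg
Of the protein-coding genes with a 5′ end in a domain, 1644 had a RefSeq promoter, with a median of 24 CpGs per 300 bases, against a median of 14 over the 16513 protein-coding genes that had one. Fewer than 5 CpGs, as at Nanog, were held by 4.20% of the domain promoters and by 27.6% of all protein-coding promoters.

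The deletion and the depth were checked in the libraries first. The 39 Obox4 rows summed to 4.68, 3.65 and 11.9 CPM (counts scaled to the library total) in Obox4 KO PlaB+ cells, against 17.0, 15.6 and 15.6 CPM in WT PlaB+ cells, and replicate 3 of the Obox4 KO stood nearest to WT. The same sum was 0.192, 0 and 0.186 CPM in double KO cells, against 0.130, 0.116 and 0.124 CPM in Dux KO cells, so that Obox4 RNA was near 0 in the Dux KO reference as well. The Obox4 rows are near-identical copies, and reads shared between copies were discarded, so these sums may be too low. Within the deleted span, H3K27ac lists held 0 peaks in all 6 Obox4 KO lists and 3 to 6 peaks in the 6 WT lists, and H3K4me3 lists held 1 peak in each Obox4 KO list and 5 or 6 in each WT list. H3K27me3 lists held 1 to 4 peaks there in Obox4 KO cells, 2 to 4 in WT PlaB+ and 56 to 98 in WT PlaB- cells. RNA totals ran from 14283083 to 48837123 counts in the PlaB table, the lowest in replicate 3 of the double KO, where the coding domain genes took 26.0% of the CPM, against 34.8% in the other double KO libraries. Naive pluripotency markers such as Pou5f1, Nanog and Zfp42 were present in every RNA library. Peak lists carry no read depth, so the depth behind a covered base is unknown. The H3K4me3 lists covered 44.0 to 49.2 Mb in Obox4 KO PlaB+, 39.1 to 44.1 Mb in WT PlaB+, 52.3 to 58.8 Mb in Obox4 KO PlaB- and 67.6 to 71.7 Mb in WT PlaB- cells, and any count of domains kept or lost moves with these totals.

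The domains were 4000 to 26507 bases long, with a median of 5166.5 bases against 1284 bases over all regions, and 157 of them reached 10 kb while 1267 were under 5 kb. Together they held 16.8 Mb, or 21.3% of all bases in H3K4me3 regions. Just inside the threshold of 4 kb lay the domains of Cox20, Mme and Khdrbs1, each of 4000 bases. Just outside lay the regions of Klhdc7a (3998 bases), Cnot6 (3999 bases) and a stretch at chr14:19858112-19862110 with no gene start (3999 bases). The threshold therefore divides a continuous range of lengths.

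Most domains sat on gene starts and reached into the gene body. Of the 2832 domains, 1704 (60.2%) held the 5′ end of a protein-coding gene, 272 (9.60%) only another transcript start of a protein-coding gene, and 155 (5.47%) only the 5′ end of a non-coding gene. A further 119 (4.20%) lay over exons, 188 (6.64%) within introns and 394 (13.9%) outside protein-coding genes. In the 1318 domains with a single protein-coding 5′ end, the median stretch was 3768 bases downstream of it and 1436.5 bases upstream, and 1140 of these domains (86.5%) reached farther downstream. In 126 of them the gene lay wholly inside the domain. A further 348 domains held 2 protein-coding 5′ ends and 38 held more, up to 5. In all, 3011 genes had a 5′ end in a domain, among them 2133 of 21884 annotated protein-coding genes (9.75%). Of the non-coding genes, 151 of 1507 snoRNA genes (10.0%), 120 of 2202 miRNA genes (5.45%), 186 of 2959 antisense genes (6.29%) and 137 of 5614 lincRNA genes (2.44%) began in a domain. The X chromosome held 2.01% of the domains, against 3.20% of all regions, and chromosome 11 held 8.86%, against 6.87%.

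The 15 longest domains included genes of the pluripotent state. The longest was at an internal transcript start of Myo10, a motor of filopodia (chr15:25750728-25777234, 26507 bases), followed by an internal start of Esrrb, an orphan nuclear receptor of naive pluripotency (chr12:86466268-86492707, 26440 bases). Elovl6, a fatty acid elongase, came next (chr3:129531655-129555580, 23926 bases), then the domain shared by 2410137M14Rik and H2-M5, a non-classical MHC class I gene (22489 bases). Tet1, which oxidises 5-methylcytosine, had 21966 bases at an internal start, Mllt6 21122 bases, Zfp42 (Rex1), a classical marker of naive mESCs, 20781 bases, and Smad7, the feedback inhibitor of TGF-β signalling, 18203 bases. The others were at Rnf7, Mybl2, Hnrnpf, Abt1, Etv5, Klf3 and the long non-coding RNA Trp53cor1. Every one of these 15 domains held an OBOX4 peak, as did 96.8% of all 157 domains of 10 kb or more.

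Domains carried H3K27ac and OBOX4 peaks more often than shorter regions, and their genes had more RNA. An H3K27ac peak of WT PlaB- cells was held by 97.3% of the domains, 82.5% of the 8327 regions of 2 to 4 kb without H3K27me3, and 35.4% of the 302 long regions with H3K27me3. An OBOX4 peak was held by 79.5% of the domains (2251, 95% Wilson interval 78.0 to 80.9%), against 50.2% (49.1 to 51.3%) of the regions of 2 to 4 kb and 46.4% (40.8 to 52.0%) of the long regions with H3K27me3. The intervals cover counting error only, and a longer region offers more bases for a peak to meet, whose part in this difference was not tested. RNA at 0 h of the inducible line had a median of 15.3 CPM per kb over the 2133 coding domain genes, 7.96 over the coding genes of the 2 to 4 kb regions and 0.908 over those of the long regions with H3K27me3. Less than 1 CPM per kb was seen for 7.22%, 8.25% and 51.9% of these genes. In WT PlaB+ cells the medians were 18.3, 8.13 and 1.94 CPM per kb. The domains were lower in CpG, with a median of 25.1 per kb, against 30.4 per kb in the 2 to 4 kb regions and 47.0 per kb in the long regions with H3K27me3. Across the 2133 coding domain genes, length and RNA at 0 h had a Spearman correlation of 0.186, and across the 13603 coding genes with any region it was 0.498. Genes of 1 library share its depth and neighbours share domains, so the correlations are descriptions.

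Length was kept most often in untreated Obox4 KO cells and least often in PlaB-treated WT cells. A region of at least 4 kb still lay over 1623 domains (57.3%) in Obox4 KO PlaB+, 1211 (42.8%) in WT PlaB+ and 2002 (70.7%) in Obox4 KO PlaB- cells. These regions were merged from the 3 lists of each group in the same way, but with or without H3K27me3, and could reach outside the domain. Shorter regions of 2 to 4 kb covered 910, 1252 and 677 domains in the same order, and 51, 55 and 10 domains met no region at all. The median longest region was 4228 bases in Obox4 KO PlaB+, 3781.5 bases in WT PlaB+ and 4695 bases in Obox4 KO PlaB- cells. More than 1 region lay over 547, 554 and 489 domains, which had thus been split. Counted by the full rule, which leaves out regions with H3K27me3, the 3 groups had 1721, 1234 and 2219 domains of their own. These overlapped 1585, 1193 and 1931 of the WT PlaB- domains. Because the members were chosen for their length in WT PlaB- cells, shorter regions elsewhere were partly fixed by the choice, and the counts were given no test.

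**Figure D1:**
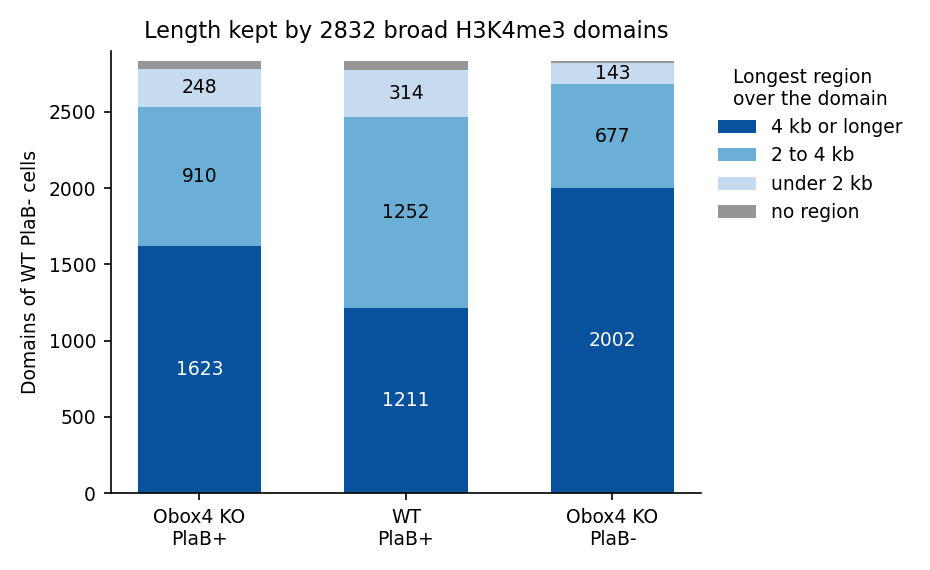
Number of the 2832 domains (vertical axis) by the length of the longest H3K4me3 region that lay over them in Obox4 KO PlaB+, WT PlaB+ and Obox4 KO PlaB- cells. A region of at least 4 kb covered 1623, 1211 and 2002 domains, and the grey segments are the 51, 55 and 10 domains with no region.

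The domains that stayed broad in all 3 other groups numbered 1058 (37.4%). They were longer in WT PlaB- cells, with a median of 6365 bases, 75.5% held a protein-coding 5′ end, and the median RNA of their genes at 0 h was 18.9 CPM per kb. The 686 domains (24.2%) that were broad in none of the 3 had a median of 4458 bases, a protein-coding 5′ end in 37.6%, and 10.5 CPM per kb. Broad H3K4me3 in both Obox4 KO groups but not in WT PlaB+ was found for 458 domains (16.2%), and in Obox4 KO PlaB- alone for 391 (13.8%). WT PlaB+ alone kept 37 domains and Obox4 KO PlaB+ alone kept 86. Kept domains were thus mostly the long ones at gene starts.

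The share that stayed broad was larger in each longer length class. Of the 1267 domains of 4 to 5 kb, 37.8% stayed at 4 kb or more in Obox4 KO PlaB+, 19.3% in WT PlaB+ and 55.5% in Obox4 KO PlaB- cells. Of the 157 domains of 10 kb or more, 91.7%, 88.5% and 95.5% did. The share with an OBOX4 peak was 73.6% at 4 to 5 kb, 79.3% at 5 to 7 kb, 90.8% at 7 to 10 kb and 96.8% at 10 kb or more. The median RNA at 0 h was 12.7, 16.2, 25.3 and 24.5 CPM per kb in the same 4 classes. H3K27ac peaks of WT PlaB- cells covered 51.3%, 54.7%, 62.8% and 68.9% of their bases. A domain near 4 kb has few bases to lose before it falls under that length, so the classes do not set a rate of loss.

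**Figure D2:**
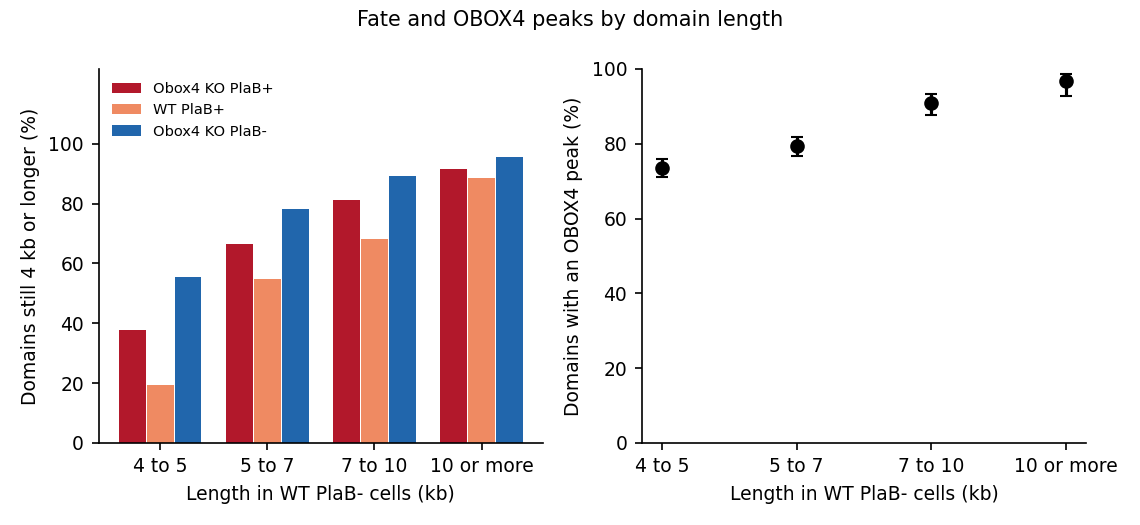
Left, percentage of domains (vertical axis) that were still 4 kb or longer in Obox4 KO PlaB+, WT PlaB+ and Obox4 KO PlaB- cells, by length in WT PlaB- cells (horizontal axis, kb). Right, percentage of domains with an OBOX4 peak in the same classes with 95% Wilson intervals, which was 73.6% in the shortest and 96.8% in the longest class.

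Counted per list rather than per merged region, H3K4me3 peaks covered 73.3, 72.7 and 65.3% of the domain bases in Obox4 KO PlaB+ (70.4 ± 4.47%, SD, n = 3), 64.5, 62.3 and 56.3% in WT PlaB+ (61.0 ± 4.27%), 78.7, 82.4 and 79.9% in Obox4 KO PlaB- (80.3 ± 1.88%) and 93.4, 90.0 and 90.0% in WT PlaB- cells (91.1 ± 1.94%). The lists of the treated KO and the treated WT did not overlap, with a difference of 9.41 percentage points (exact permutation test, two-sided p = 0.1, the smallest p that 3 against 3 allows). The treated KO lay below the untreated KO by 9.88 points, again without overlap (exact permutation p = 0.1). The regions of 2 to 4 kb differed by 5.96 points between Obox4 KO PlaB+ and WT PlaB+ (exact permutation p = 0.2), so the gap was not seen in the domains alone. No test could pass 0.05 here. H3K27ac peaks covered 59.0, 53.6 and 53.5% of the domain bases in Obox4 KO PlaB+ (55.4 ± 3.12%), against 46.2, 46.1 and 51.2% in WT PlaB+ cells (47.9 ± 2.89%), a gap of 7.50 points (exact permutation p = 0.1). They covered 62.0, 62.9 and 54.7% in Obox4 KO PlaB- (59.9 ± 4.45%), against 50.5, 60.6 and 59.6% in WT PlaB- cells (56.9 ± 5.55%), which overlapped (2.94 points, exact permutation p = 0.5, and -0.25 points without replicate 1 of WT PlaB-). For WT PlaB+ against WT PlaB- the H3K27ac difference was -9.07 points (exact permutation p = 0.2), and for Obox4 KO PlaB+ against Obox4 KO PlaB- it was -4.51 points (exact permutation p = 0.2).

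**Figure D3:**
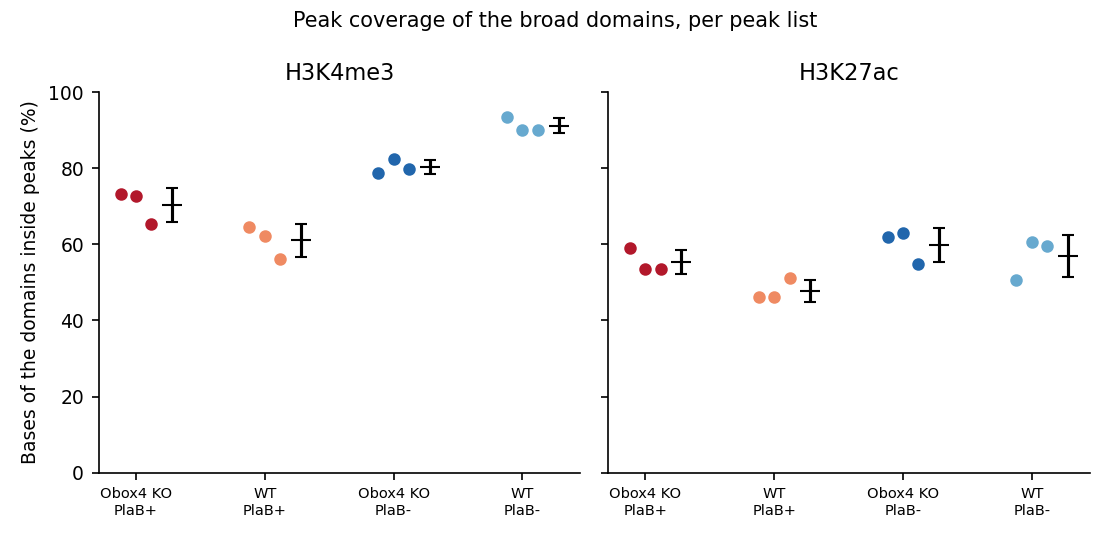
Percentage of the bases of the 2832 domains that lay inside H3K4me3 peaks (left) and H3K27ac peaks (right) in each of 3 lists per group, with the mean and SD beside the points. H3K4me3 coverage in Obox4 KO PlaB+ lists (65.3 to 73.3%) lies above that in WT PlaB+ lists (56.3 to 64.5%), and the WT PlaB- lists, which chose the domains, are highest.

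H3K27me3 reached few of the domains in the other groups. Its peaks touched 75, 68 and 97 domains in Obox4 KO PlaB+, against 47, 23 and 13 in WT PlaB+ cells, with no overlap (exact permutation p = 0.1), and 89, 111 and 118 in Obox4 KO PlaB- cells (Obox4 KO PlaB+ against Obox4 KO PlaB-, exact permutation p = 0.2). WT PlaB- cells had 0 by the rule. The domains were chosen to lack H3K27me3 in WT PlaB- cells, so low counts in the treated WT may be partly fixed by the choice. Of the regions of 2 to 4 kb without H3K27me3, chosen alike, a mean of 4.62% were touched in Obox4 KO PlaB+ lists. In WT PlaB+ lists the mean was 1.12% (exact permutation p = 0.1), so the gap was not seen in the domains alone. All H3K27me3 peaks together covered 112 to 168 Mb in Obox4 KO PlaB+, 89.2 to 126 Mb in WT PlaB+ and 117 to 127 Mb in Obox4 KO PlaB- lists. The large majority of domains thus stayed free of H3K27me3 peaks in all 9 other lists.

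Single domains were compared by their covered bases, as log2(bases + 100), with limma over all regions that had a peak in at least 3 of the lists fitted, and a domain was called at an adjusted p of at most 0.05. Where every list of a group was at 0 bases, the fitted log2 difference depends on these 100 bases, and the covered bases themselves are the result. A domain with peaks in the lists of 1 group alone entered the fit through that group, so its p-value adds no support. With PlaB, most calls of H3K27ac in WT domains were losses: 7 of the 2790 domains tested were higher and 415 (14.9%) lower in WT PlaB+ than in WT PlaB- cells, and 2368 were not called, where 1.21% and 10.9% of all 25223 regions were higher and lower. The median log2 difference was -0.21 over the domains and -0.19 over all regions, so the domains moved much as other regions did. Without replicate 2 of WT PlaB- 223 domains were lower, and without its replicate 3, 242. With the highest enrichment of a peak in place of covered bases, 36 were higher and 224 lower.

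An intronic domain of Chst3, a chondroitin sulfotransferase (chr10:60212682-60216967), held 0 bases of H3K27ac in all 3 WT PlaB+ lists, against 1191, 3260 and 2694 bases in WT PlaB- lists (-4.52 ± 0.30, SE, adjusted p = 1.59e-05, limma). A domain in Bag3, a co-chaperone gene (chr7:128528127-128532150), likewise held 0 bases in WT PlaB+ lists, against 834, 1219 and 1717 bases in WT PlaB- lists (-3.71 ± 0.33, adjusted p = 1.13e-04, limma). At Lefty2, the secreted inhibitor of Nodal signalling (chr1:180891770-180896728), the bases were 0, 299 and 0 in WT PlaB+, against 1517, 2071 and 1661 in WT PlaB- lists (-3.53 ± 0.77, adjusted p = 0.0177, limma), a call that was lost without replicate 1 of WT PlaB+ or without replicate 2 or 3 of WT PlaB-. The lists of the groups did not overlap at these 3 domains. Esrrb kept part of its H3K27ac, with 12794, 12460 and 14829 bases in WT PlaB+, against 16051, 19211 and 20550 bases in WT PlaB- lists (-0.47 ± 0.10, adjusted p = 0.0123, limma), a call lost without replicate 2 of WT PlaB-. Among the few that were higher, Rap1a, a small GTPase, had 1909, 1355 and 1308 bases in WT PlaB+, against 0, 394 and 0 bases in WT PlaB- lists (3.23 ± 0.74, adjusted p = 0.0216, limma), and Diaph1, a formin, had 1516, 1093 and 1562 bases, against 831, 991 and 917 bases (0.54 ± 0.15, adjusted p = 0.0455, limma). Both of these calls were lost in several fits that left out 1 list.

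Without PlaB, loss of Obox4 went with H3K27ac gains and losses at fewer domains. In Obox4 KO PlaB- against WT PlaB- cells 146 domains were higher and 87 lower, where 6.61% and 2.98% of all regions were, and the median log2 difference was 0.04 over the domains and 0.09 over all regions. This split moved with the scaling: with each list centred it was 150 higher and 154 lower, and by the highest enrichment 399 higher and 98 lower. The count of higher domains was 55 without replicate 1 and also without replicate 2 of Obox4 KO PlaB-, 95 without its replicate 3 and 88 without replicate 1 of WT PlaB-. The count of lower domains was 53 without replicate 3 of Obox4 KO PlaB-, and 49 and 53 without replicate 2 and replicate 3 of WT PlaB-. Bach2, a BTB transcription repressor (chr4:32237954-32244924), had 4701, 4621 and 3460 bases in Obox4 KO PlaB-, against 0 in all 3 WT PlaB- lists (5.43 ± 0.16), although its H3K4me3 domain was there in both. It entered the fit through these Obox4 KO PlaB- lists alone, so no p-value is given for it. Lama1, a laminin chain of the basement membrane, had 3561, 3428 and 2244 bases against 0 in all 3 (4.96 ± 0.44, adjusted p = 8.19e-05, limma). Rgma, a guidance molecule and BMP co-receptor, had 2795, 2825 and 2717 bases against 0 in all 3, and Sox12, a SoxC factor, 1518, 1233 and 979 bases against 0 in all 3. These genes carried a broad H3K4me3 domain without H3K27ac peaks in WT PlaB- cells. In the other direction, 1500009C09Rik had 0, 209 and 0 bases in Obox4 KO PlaB-, against 2412, 2870 and 3314 bases in WT PlaB- lists, and an exonic domain of Hepacam, a cell adhesion gene, had 0 in all 3, against 1123, 2189 and 2281 bases.

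With PlaB, Obox4 KO cells lost H3K27ac and H3K4me3 at part of the domains, for H3K27ac about as often as over all regions. In Obox4 KO PlaB+ against Obox4 KO PlaB- cells H3K27ac was higher at 60 (2.15%) and lower at 325 domains (11.6%). Of all regions 2.01% and 11.0% were, and with each list centred 171 domains were higher and 287 lower. H3K4me3, fitted over the 9 lists of the groups that did not choose the domains, was higher at 44 and lower at 538 of 2827 domains, where 2.15% and 14.3% of all 34511 regions were. The medians were -0.08 for H3K27ac and -0.13 for H3K4me3 over the domains, and -0.12 and -0.08 over all regions. By the highest enrichment the H3K4me3 counts were 434 higher and 366 lower (whether these were the same domains was not counted). Without replicate 1 of Obox4 KO PlaB- H3K27ac gave 45 higher and 192 lower and H3K4me3 20 and 298, without its replicate 2 51 and 190 and 28 and 232, and without its replicate 3 H3K27ac gave 38 higher and H3K4me3 16 and 242. Leaving out replicate 1 or 3 of Obox4 KO PlaB+ gave 37 and 40 domains with higher H3K27ac, and leaving out its replicate 1 or 2 gave 23 with higher H3K4me3. Both marks were lower at 164 domains, which is 30.5% of the domains with lower H3K4me3 and 50.5% of those with lower H3K27ac.

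At Chst3 the treated KO held no peak of either mark: H3K4me3 covered 0 bases in all 3 Obox4 KO PlaB+ lists, against 2675, 3431 and 3244 bases in Obox4 KO PlaB- lists, and H3K27ac 0 in all 3, against 3384, 3305 and 3008 bases. Bach2 lost its H3K27ac, with 0 bases in all 3 Obox4 KO PlaB+ lists, against 4701, 4621 and 3460 bases in Obox4 KO PlaB- lists, and Gja1, a gap junction connexin, had 0 in all 3, against 3359, 3203 and 2457 bases. The lists did not overlap at any of these. An intronic domain within the bodies of Fgfr2 and Htra1 (chr7:130943868-130954408), apart from the domain at the Fgfr2 5′ end, had 383, 227 and 0 bases of H3K27ac in Obox4 KO PlaB+, against 8751, 8648 and 7482 bases in Obox4 KO PlaB- lists (-5.06 ± 0.47, adjusted p = 9.51e-05, limma). H3K4me3 was at 0 in all 3 treated lists at an intron of Cdh4, a cadherin (3720, 5081 and 5105 bases in Obox4 KO PlaB-), and at an internal start of Radil (3706, 3895 and 4147 bases). Radil had no H3K4me3 in WT PlaB+ lists either. A few domains were higher in the treated KO. At an internal start of Bcl9l, a β-catenin cofactor, H3K27ac covered 3115, 2980 and 2137 bases in Obox4 KO PlaB+, against 0 in all 3 Obox4 KO PlaB- lists (4.81 ± 1.02, adjusted p = 0.0134, limma, lost without replicate 1 of Obox4 KO PlaB-). Padi4, a peptidylarginine deiminase that citrullinates histones, had 2366, 2800 and 2143 bases against 0 in all 3 (4.66 ± 0.60, adjusted p = 8.67e-04, limma). H3K4me3 in an intron of St6galnac3, a sialyltransferase gene, covered 3778, 3982 and 3329 bases in Obox4 KO PlaB+, against 0, 597 and 0 bases in Obox4 KO PlaB- lists, and Gm13128 had 962, 1070 and 747 bases against 0 in all 3.

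Under PlaB, more domains had a higher than a lower coverage by both marks in the Obox4 KO than in WT. In Obox4 KO PlaB+ against WT PlaB+ cells H3K27ac was higher at 660 and lower at 209 of 2790 domains (15.5% and 6.10% of all regions; 610 higher and 320 lower with each list centred). Without replicate 1 of Obox4 KO PlaB+ 429 were higher. H3K4me3 was higher at 811 and lower at 126 of 2827 domains (14.3% and 5.31% of all regions; 1960 higher and 67 lower by the highest enrichment). The domains with higher H3K4me3, 28.7% of those tested, thus made up a larger share than among all regions, while the medians were 0.16 over the domains and 0.06 over all regions. For H3K27ac the medians were 0.11 and 0.09. Both marks were higher at 394 domains, which is 48.6% of the domains with higher H3K4me3 and 59.7% of those with higher H3K27ac, and both were lower at 67. Opposite calls were made at 6 and 1 domains. Over the whole genome the H3K27ac lists covered 42.5 to 52.2 Mb in Obox4 KO PlaB+, against 28.5 to 33.4 Mb in WT PlaB+ cells, and the H3K4me3 lists 44.0 to 49.2 Mb, against 39.1 to 44.1 Mb. The part of these totals in the calls and in the coverage of the domains was not tested. These contrasts share their treated KO lists with those against the untreated KO.

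Esrrb, Smad7 and Lefty2 had more of both marks in the treated KO. Over Esrrb, H3K4me3 covered 23993, 22421 and 20771 bases in Obox4 KO PlaB+, against 11546, 12943 and 11340 bases in WT PlaB+ lists (0.90 ± 0.09, adjusted p = 3.25e-04, limma), and H3K27ac 23597, 23012 and 22987 bases, against 12794, 12460 and 14829 bases (0.80 ± 0.10, adjusted p = 4.56e-04, limma). The treated KO lists overlapped the range of the untreated lists in H3K4me3 there. Esrrb RNA went the other way, with 258, 255 and 367 CPM in Obox4 KO PlaB+, against 526, 518 and 528 CPM in WT PlaB+ libraries. Over Smad7, H3K4me3 covered 15846, 15231 and 13596 bases in Obox4 KO PlaB+, against 9766, 9137 and 8764 bases in WT PlaB+ lists (0.68 ± 0.07, adjusted p = 6.37e-04, limma), and H3K27ac 10242, 9711 and 9641 bases, against 2615, 2551 and 4133 bases (1.67 ± 0.21, adjusted p = 5.98e-04, limma). H3K27ac at Smad7 was above that of either untreated group, which held 4127 to 6337 bases. Over Lefty2, H3K4me3 covered 4331, 4307 and 4176 bases in Obox4 KO PlaB+, against 2341, 2510 and 1891 bases in WT PlaB+ lists (0.91 ± 0.10, adjusted p = 6.05e-04, limma), and H3K27ac 3157, 1426 and 1617 bases, against 0, 299 and 0 bases. No list of WT PlaB+ reached a list of Obox4 KO PlaB+ at these 3 domains in either mark.

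Further domains with more H3K27ac in the treated KO were at Klf15, a Krüppel-like factor (3137, 3578 and 3390 bases in Obox4 KO PlaB+, against 0, 206 and 266 bases in WT PlaB+ lists), and Epha4, an ephrin receptor (2922, 2739 and 2459 bases, against 0, 0 and 275 bases). H3K4me3 at Lama1 covered 4352, 4087 and 3985 bases in Obox4 KO PlaB+, against 2184, 2179 and 2072 bases in WT PlaB+ lists (0.92 ± 0.05, adjusted p = 1.67e-05, limma). An intron of Rbpms, an RNA-binding protein gene, had 2471, 2896 and 1241 bases of H3K4me3, against 0 in all 3, and the St6galnac3 intron had 3778, 3982 and 3329 bases, against 0 in all 3. Lower in the treated KO were the H3K27ac of Sord, the sorbitol dehydrogenase gene (0 in all 3 Obox4 KO PlaB+ lists, against 945, 1763 and 1724 bases in WT PlaB+ lists), and of an exonic domain of Fam198b (267, 0 and 0 bases, against 2296, 1655 and 2805 bases). H3K4me3 was lower over Nmt1, an N-myristoyltransferase gene, with 0, 218 and 0 bases in Obox4 KO PlaB+, against 2461, 3072 and 1721 bases in WT PlaB+ lists, and over an intron of Pced1b, with 0 in all 3, against 1171, 1713 and 874 bases. The lists again did not overlap at any of these domains.

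**Figure D4:**
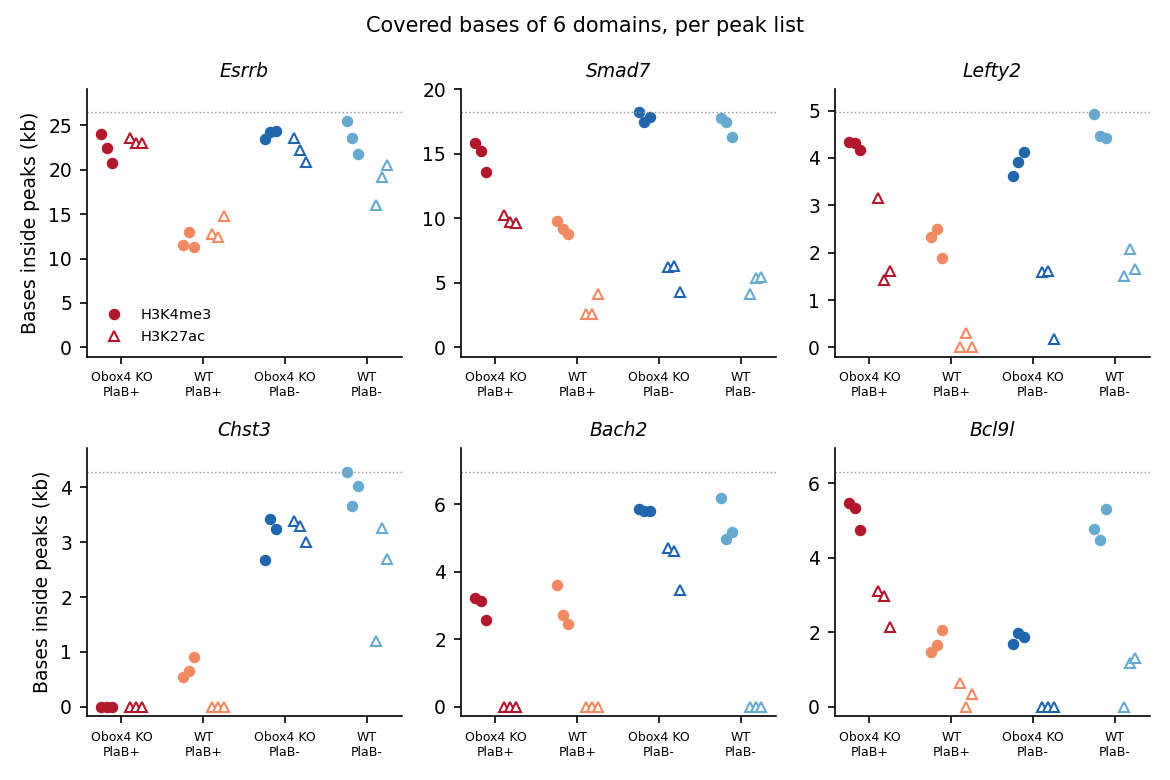
Bases (vertical axis, kb) of 6 domains that lay inside H3K4me3 peaks (circles) and H3K27ac peaks (triangles) in each list of Obox4 KO PlaB+, WT PlaB+, Obox4 KO PlaB- and WT PlaB- cells, with the domain length as a dotted line. Esrrb, Smad7 and Lefty2 have more covered bases of both marks in Obox4 KO PlaB+ than in WT PlaB+ lists, Chst3 has 0 in all Obox4 KO PlaB+ lists, Bach2 has H3K27ac in Obox4 KO PlaB- lists only, and Bcl9l is highest in Obox4 KO PlaB+ for H3K27ac.

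The change of H3K27ac with PlaB was compared between the lines as an interaction. It was higher in Obox4 KO than in WT at 208 domains and lower at 87, where 5.78% and 4.68% of all regions were. For H3K4me3 no such test was made, because the WT PlaB- lists chose the domains.

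RNA of the domain genes was compared among the PlaB-treated genotypes with edgeR's quasi-likelihood test over all genes, and a gene was called where the adjusted p was 0.01 or less and the log2 fold change at least 1 in size. In Obox4 KO against WT cells 70 of 2635 domain genes were higher and 80 lower, where 4.92% and 3.96% of all 22328 genes were, and 376 domain genes were too low to be tested. The median log2 fold change was -0.07 over the domain genes and 0.02 over all genes. Replicate 3 of the Obox4 KO stood apart, with trophectoderm markers summing to 192 CPM against 74.4 and 73.6 CPM in the other 2, and without it 98 domain genes were higher and 169 lower. Markers of 2C-like cells, among them Zscan4c, Zscan4d and Zfp352, summed to 367, 362 and 777 CPM in Obox4 KO. In WT cells they summed to 868, 895 and 796 CPM. The members of this sum differed: Zfp352 had 4.30, 3.71 and 4.00 CPM in Obox4 KO, against 54.5, 53.9 and 44.7 CPM in WT cells. Zscan4c had 92.5, 92.1 and 243 CPM, against 207, 212 and 182 CPM, and so was above WT in replicate 3. Trophectoderm markers summed to 53.6 to 58.6 CPM in WT, and primitive endoderm markers to 52.4 to 71.6 CPM in Obox4 KO and 22.1 to 22.9 CPM in WT cells. Of the trophectoderm markers, Gata3 had 49.7, 48.9 and 86.1 CPM in Obox4 KO, against 18.2 to 19.1 CPM in WT cells, and Elf5 and Hand1 were also higher. Cdx2 had 7.29, 8.64 and 62.7 CPM, against 14.8 to 17.3 CPM, and Eomes 9.66, 8.72 and 32.4 CPM, against 16.7 to 21.1 CPM. Both were thus lower than WT in replicates 1 and 2 and higher in replicate 3. The part of cells of these types in the results was not tested. In bulk samples, fewer cells of a type and less RNA per cell cannot be told apart.

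Pluripotency and signalling genes made up part of the lower set. Sox2, the SRY-box partner of Oct4 (domain chr3:34647710-34657824), had 101, 102 and 221 CPM in Obox4 KO, against 491, 468 and 482 CPM in WT cells (log2 fold change -1.77 ± 0.25, SE, adjusted p = 3.22e-04, edgeR). Socs3, the feedback inhibitor of LIF/STAT3 signalling, had 37.0, 38.7 and 65.8 CPM, against 139, 132 and 145 CPM (-1.55 ± 0.19, adjusted p = 1.41e-04, edgeR). Dusp6, an ERK phosphatase, had 4.24, 4.18 and 9.45 CPM, against 21.6, 23.6 and 21.5 CPM (-1.90 ± 0.29, adjusted p = 5.68e-04, edgeR). In each of these, the replicate 3 library lay between the other KO libraries and WT. Bach2 had 5.25, 5.24 and 11.2 CPM in Obox4 KO, against 33.1, 32.9 and 33.1 CPM in WT cells (-2.20 ± 0.25, adjusted p = 7.58e-05, edgeR), and Lama1 26.3, 27.7 and 54.3 CPM, against 133, 132 and 130 CPM (-1.86 ± 0.24, adjusted p = 1.75e-04, edgeR), although the H3K4me3 of Lama1 was broader in the treated KO. Ooep, a component of the subcortical maternal complex, Cd38, an NAD glycohydrolase, Tmem8 and the non-coding Platr6 fell as well, the last only with replicate 2 of the Obox4 KO in the fit.

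The higher set held genes of several kinds. Peg3, an imprinted zinc finger gene, had 243, 232 and 314 CPM in Obox4 KO, against 44.8, 44.8 and 46.9 CPM in WT cells (2.53 ± 0.14, adjusted p = 1.36e-06, edgeR). Cldn4, a claudin of tight junctions, had 359, 361 and 406 CPM, against 79.1, 81.9 and 84.2 CPM (2.20 ± 0.13, adjusted p = 1.77e-06, edgeR). Gadd45b, a stress-response gene, had 88.8, 86.9 and 47.1 CPM, against 14.4, 13.9 and 13.8 CPM, and Ddit3 (CHOP), a transcription factor of the unfolded protein response, 50.7, 48.5 and 15.3 CPM, against 7.73, 7.24 and 7.38 CPM. Among immediate early genes, Zfp36, which speeds the decay of AU-rich mRNAs, had 28.6, 27.6 and 20.7 CPM, against 6.44, 7.81 and 6.43 CPM (1.90 ± 0.16, adjusted p = 1.03e-05, edgeR), and Jund, an AP-1 subunit, 103, 109 and 144 CPM, against 30.6, 26.8 and 35.9 CPM (1.93 ± 0.22, adjusted p = 7.15e-05, edgeR). Klf6 had 296, 295 and 180 CPM, against 74.6, 81.5 and 78.5 CPM. The libraries of the 2 genotypes did not overlap at any of these genes. Tjp3, a tight junction scaffold, had the largest of the named fold changes (2.95 ± 0.46), and the non-coding Lockd (2.68 ± 0.53) and Mir142hg were also called, and the calls of the last 2 were lost in fits that left out 1 library.

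The domains with more mark in the treated KO held genes with higher and with lower RNA. Of 418 genes tested in domains with higher H3K27ac in Obox4 KO PlaB+ than in WT PlaB+ cells, 18 had higher and 35 lower RNA, with a median log2 fold change of -0.16. Of 700 genes in domains with higher H3K4me3, 23 had higher and 22 lower RNA, with a median of -0.11. Over all genes tested 4.92% were higher and 3.96% lower, and over all 2635 domain genes 2.66% and 3.04%. Of 232 genes in domains with lower H3K27ac 3 were higher and 3 lower, and of 66 genes in domains with lower H3K4me3 2 were higher and 3 lower. Smad7 RNA was 369, 356 and 423 CPM in Obox4 KO, against 580, 556 and 598 CPM in WT cells (-0.59 ± 0.16, adjusted p = 0.0170, edgeR, not called), while its covered bases of both marks were higher.

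The double KO was also compared with the Dux KO. It was derived from the Obox4 KO line and not from the Dux KO line, so the deletion cannot be told apart from the line. In double KO against Dux KO cells 70 domain genes were higher and 89 lower (5.07% and 2.00% of all genes), with a median log2 fold change of -0.12 over the domain genes and -0.03 over all genes. Lower calls were a larger share of the domain genes, 3.38%, than of all genes, but without any 1 of the Dux KO libraries in turn only 48 to 51 were higher and 41 to 46 lower. Trophectoderm markers summed to 278 to 326 CPM in double KO, against 68.2 to 73.2 CPM in Dux KO cells, and primitive endoderm markers to 103 to 203 CPM, against 27.9 to 29.5 CPM, and the part of these cells in the calls was not tested. The 2C-like markers were near 0 in both, with 0.192, 0.102 and 0 CPM in double KO and 0.346, 0.116 and 0.0824 CPM in Dux KO cells. Nanog had 250, 293 and 255 CPM in double KO, against 688, 692 and 680 CPM in Dux KO cells (-1.37 ± 0.09, adjusted p = 5.03e-06, edgeR). In the WT background Nanog had 480, 500 and 513 CPM in Obox4 KO, against 806, 813 and 843 CPM in WT cells (-0.72 ± 0.09, adjusted p = 1.48e-04, edgeR), which missed the fold threshold. Gli2, a Hedgehog effector, had 12.8, 21.3 and 14.7 CPM in double KO, against 63.6, 58.5 and 61.1 CPM in Dux KO cells (-1.90 ± 0.16, adjusted p = 1.99e-05, edgeR). A group of KRAB zinc finger genes of chromosome 4, Zfp987, Zfp978, Zfp980, Zfp534 and Rex2, was lower in the double KO, and lowest in its replicate 3: Zfp987 had 3.91, 4.57 and 0.559 CPM, against 15.8, 17.5 and 16.4 CPM. These genes are close copies, whose shared reads were discarded, and the calls of Zfp978, Zfp980 and Rex2 were lost without replicate 1 of the Dux KO.

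Among the higher genes, Cldn4 had 789, 611 and 912 CPM in double KO, against 161, 166 and 165 CPM in Dux KO cells (2.23 ± 0.13, adjusted p = 2.34e-06, edgeR). Elf3, an epithelial ETS factor, had 358, 385 and 669 CPM, against 116, 117 and 120 CPM, and Ppp1r13l, an inhibitor of p53, 112, 89.7 and 111 CPM, against 23.0, 20.4 and 19.2 CPM. Fgfr2, the FGF receptor of the trophectoderm, had 39.9, 57.4 and 51.3 CPM, against 13.9, 13.8 and 14.3 CPM (1.82 ± 0.37, adjusted p = 0.00385, edgeR, lost without replicate 3 of the double KO). In both backgrounds 25 domain genes were higher (35.7% of either set), among them Cldn4, Elf3, Tjp3, Sfn, Jund, Junb, Zfp36 and Lzts2, and 16 were lower (20.0% and 18.0%), among them Sox2, Bach2, Phc1, Gli2, Kit and H2-M5, while 1 moved in opposite directions. In the WT background the call of Elf3 was lost without replicate 3 of the Obox4 KO or any WT library. The sets share no library, although the double KO was made from the Obox4 KO line. The log2 fold change differed between the backgrounds, by the interaction, at 14 domain genes in the higher and 14 in the lower direction (0.793% and 0.452% of all genes). For Bach2 and Sox2 the double KO calls were lost in most fits that left out 1 library.

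**Figure D5:**
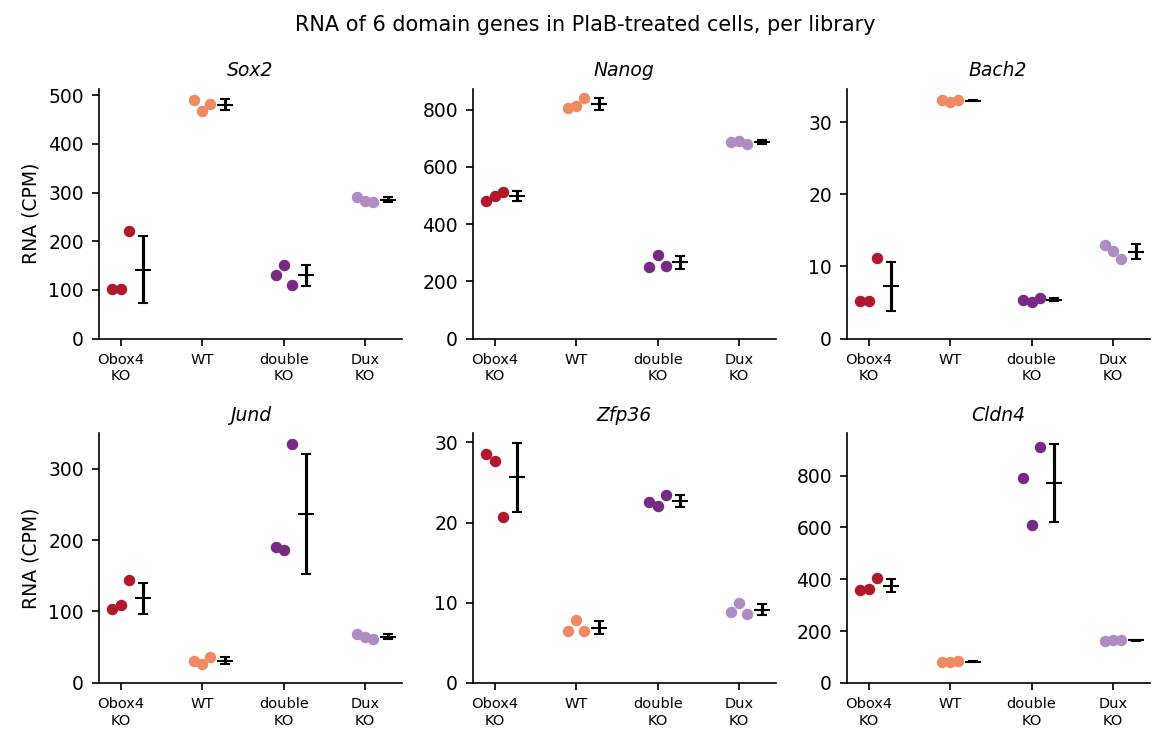
RNA (CPM, vertical axis) of 6 domain genes in each of 3 libraries of PlaB-treated Obox4 KO, WT, double KO and Dux KO cells, with the mean and SD beside the points. Sox2, Nanog and Bach2 are lower and Jund, Zfp36 and Cldn4 higher in Obox4 KO than in WT and in double KO than in Dux KO libraries, and Nanog passed the fold threshold only in double KO against Dux KO.

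The domain genes were also read by lists of pathways. For comparison, 9.75% of all annotated protein-coding genes began in a domain. Of all 2832 domains 57.3% stayed broad in Obox4 KO PlaB+, 42.8% in WT PlaB+ and 70.7% in Obox4 KO PlaB- cells, with larger shares among longer domains. Whether a list departed from these shares was not tested. Ribosomal protein genes were the most complete: 71 of 80 had a 5′ end in a domain, and 64, 54 and 67 of their 70 domains stayed at 4 kb or more in Obox4 KO PlaB+, WT PlaB+ and Obox4 KO PlaB- cells. Their RNA was lower for Rpl36a and Rps4x in Obox4 KO against WT cells and for 0 in double KO against Dux KO cells (edgeR). At an unadjusted p under 0.05, 0 were higher and 38 of 71 lower in Obox4 KO cells, and 5 higher and 23 lower in double KO cells, where DESeq2 called 3 lower. Over all 2635 domain genes tested, 441 were higher and 611 lower at that p in Obox4 KO cells. In double KO cells 504 of them were higher and 752 lower. The median log2 fold change of the list was -0.40 in Obox4 KO and -0.26 in double KO cells. Histone genes, which sit in clusters of close copies, followed with 42 of 68 genes in 16 domains, of which 10, 11 and 10 stayed broad. Hist1h2bf and Hist1h2bh were lower in double KO cells, and 1 to 9 histone genes were in fits that left out 1 library.

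Splicing factors around SF3B, the target of PlaB, had 18 of 32 genes with a domain, among them Sf3b1, the subunit that PlaB binds, Sf3b3 and Srsf3. Of their domains 14, 13 and 17 stayed broad in Obox4 KO PlaB+, WT PlaB+ and Obox4 KO PlaB- cells. In Obox4 KO against WT cells 0 of the 18 were called in RNA by edgeR and 0 by DESeq2, with 1 higher and 2 lower at an unadjusted p under 0.05. Of all 2635 domain genes, 441 were higher and 611 lower at that p. In double KO against Dux KO cells 0 were called by either tool, with 6 lower at an unadjusted p under 0.05, where 752 of all 2635 domain genes were. Genes that write or remove H3K4 methylation had domains themselves in 15 of 24 cases, among them Setd1b and Kmt2a, which encode methyltransferases, and their shared subunits Wdr5 and Ash2l. Of these 15 domains 11, 7 and 12 stayed broad. Again 0 were called in RNA by edgeR or DESeq2 in Obox4 KO against WT cells, with 2 higher and 3 lower at an unadjusted p under 0.05.

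Naive pluripotency genes had domains in 20 of 37 cases, from 4821 bases to the 20781 bases of Zfp42, with a median of 8125.5 bases. An OBOX4 peak was held by 19 of the 20 domains, near the 90.8% of all domains of 7 to 10 kb (79.5% of all domains). Of these domains 18, 16 and 20 stayed broad in Obox4 KO PlaB+, WT PlaB+ and Obox4 KO PlaB- cells. In RNA Sall1 was higher and Sox2, Klf4 and Foxd3 were lower in Obox4 KO against WT cells (3 to 6 lower in fits that left out 1 library), and Nanog, Sox2, Etv5, Rif1 and Zfp281 were lower in double KO against Dux KO cells (2 to 6 lower). At an unadjusted p under 0.05, 1 was higher and 16 of 20 lower in Obox4 KO cells, and 1 higher and 11 lower in double KO cells. Of all 2635 domain genes, 611 and 752 were lower and 441 and 504 higher at that p. The median log2 fold change of the list was -0.75 in Obox4 KO and -0.46 in double KO cells. The signalling feedback list had 13 of 30 genes with a domain, of which 13, 12 and 12 stayed broad. Socs3, Dusp6 and Smad6, an inhibitor of BMP signalling, were lower in Obox4 KO cells, the last only with replicate 3 of the Obox4 KO in the fit. In double KO against Dux KO cells 0 of these 13 genes were called, and their median log2 fold change was 0.08. Immediate early genes had 13 of 26, of which 10, 9 and 9 stayed broad. Junb, Jund, Klf6, Klf10, Zfp36 and Zfp36l2 were higher in Obox4 KO cells, and Jun, Junb, Jund and Zfp36 in double KO cells, so that AP-1 genes were higher in both backgrounds. Of all 2635 domain genes 2.66% were called higher and 3.04% lower in Obox4 KO cells, and 2.66% and 3.38% in double KO cells. Over all genes tested the shares were 4.92% and 3.96%, and 5.07% and 2.00%.

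Polycomb and DNA methylation genes had 13 of 31 with a domain, of which 11, 9 and 12 stayed broad in Obox4 KO PlaB+, WT PlaB+ and Obox4 KO PlaB- cells. Phc1, a PRC1 subunit, was the only one called lower: it had 128, 129 and 224 CPM in Obox4 KO, against 346, 331 and 325 CPM in WT cells (lost without replicate 1 or 2 of the Obox4 KO), and 171, 187 and 145 CPM in double KO, against 372, 369 and 369 CPM in Dux KO cells. The p53 pathway had 15 of 25, of which 7, 11 and 11 stayed broad. Bbc3 (Puma), a pro-apoptotic BH3 gene, had 69.5, 72.2 and 121 CPM in double KO, against 42.3, 41.5 and 43.2 CPM in Dux KO cells (1.05 ± 0.18, adjusted p = 0.00141, edgeR, lost without replicate 3 of the double KO). Of 28 genes of the 2C list Eif1a and Arl4d began in a domain (7.14%), where 9.75% of all annotated protein-coding genes did. Of 16 primitive endoderm markers Lama1 did (6.25%), of 14 trophectoderm markers Tead4 and Fgfr2 (14.3%), and of 20 somatic markers Vim (5%). These lists are short, and whether their shares differ from that of all protein-coding genes was not tested.

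Induction of Obox4 in the transgenic line changed few domain genes. At 48 h against 0 h 25 of 2544 were higher and 20 lower, where 3.37% and 0.574% of all 18625 genes were, and 467 were too low to be tested. The median log2 fold change was -0.09 over the domain genes and -0.01 over all genes. Higher calls were thus a smaller share of the domain genes, 0.983%, than of all genes. Arl4d, a small GTPase of the 2C list, had 16.2, 12.3 and 12.5 CPM at 0 h, 86.0, 123 and 135 CPM at 12 h and 141, 110 and 110 CPM at 48 h (3.14 ± 0.19 at 48 h, adjusted p = 1.17e-05, edgeR). Slc6a8, the creatine transporter, had 93.2, 102 and 110 CPM at 0 h, 403, 310 and 303 CPM at 12 h and 393, 427 and 464 CPM at 48 h (2.08 ± 0.13, adjusted p = 1.29e-05, edgeR). Chka, a choline kinase, Nptx2, Mreg, Gabarapl2, an autophagy gene, and Tbx3os1, antisense to Tbx3, were higher as well. The libraries at 0 h lay below all induced libraries at Arl4d and Slc6a8. Whether counting used strand is not given in the sources used here, so reads of Tbx3os1 and Tbx3 may be mixed.

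Bcl3, an IκB-like cofactor of NF-κB, had 8.76, 11.3 and 14.1 CPM at 0 h, 4.58, 4.38 and 5.06 CPM at 12 h and 3.15, 2.29 and 3.51 CPM at 48 h (-1.92 ± 0.21, adjusted p = 2.03e-04, edgeR), and Mycn fell to 18.4, 16.7 and 20.7 CPM at 48 h, against 43.1, 40.9 and 46.7 CPM at 0 h (-1.23 ± 0.12, adjusted p = 1.04e-04, edgeR). Gjb5, a connexin, Msc, Muc1, Lrrc15, Fut9 and the non-coding Neat1 were also lower, of which Msc, Muc1, Fut9 and Neat1 were called only with replicate 2 at 48 h in the fit and Lrrc15 only with replicate 3 at 0 h. Without replicate 2 or replicate 3 at 48 h 11 and 12 domain genes were lower, and without replicate 3 at 0 h, 13. Epop, a regulator of PRC2, was the only gene of the Polycomb list called, with 414, 401 and 453 CPM at 48 h, against 209, 208 and 191 CPM at 0 h (1.06 ± 0.10, adjusted p = 1.04e-04, edgeR). In the naive pluripotency list Mycn, and in the immediate early list Junb, were the only genes called, both lower.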

How the data were processed

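CUT&RUN for H3K4me3, H3K27ac and H3K27me3 (3 replicates of each of 4 groups), FLAG CUT&RUN for OBOX4 and RNA-seq libraries were used. The authors mapped CUT&RUN reads to GRCm38.p6 (Bowtie2 2.4.1), MACS3 3.0.0a6 was run on each replicate alone, and the deposited lists give each peak's fold enrichment (a ratio) and -log10 q. RNA was trimmed with fastp 0.23.2, aligned with STAR 2.7.9a and counted with featureCounts 2.0.1, and the deposited tables hold raw counts per gene. Of the PlaB libraries' 341658 counts above 0, 67.8% were even, against 46.8% of 250217 in the induction table, so the counts were also tested halved.

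Peaks were merged and overlapped with bedtools 2.31.1 by at least 1 base. Covered bases per region and list were fitted as log2(bases + 100) with limma 3.58.1 (R 4.3.3), with all 12 H3K27ac lists, or the 9 H3K4me3 lists other than WT PlaB-, in 1 model and regions with a peak in at least 3 lists. Counts were fitted with edgeR 4.0.16 (filterByExpr, TMM, all groups of a table in 1 model), and CPM use TMM-scaled totals. P-values were adjusted by Benjamini-Hochberg over all features tested. Tools were tested on simulated data. Replicates differed by more than sampling noise in every pair and were counted separately, but the RNA replicates were unequally apart. With halved counts, the mean chi-square per gene between replicates 1 and 2 was 1.5 in Dux KO, 1.61 in WT, 1.98 in Obox4 KO and 12.5 in double KO cells. For pairs with replicate 3 it was 61.9 and 65.3 in Obox4 KO and 179 and 183 in double KO cells. An OBOX4 peak had to be held by at least 2 of 3 lists. Named genes were the 8 called with the largest fold changes per direction at a mean count of at least 20, with list members, and named domains the 6 called with the largest differences per direction, the 15 longest and those at the threshold, from which the text gives a selection. List members that the text names as called were named after their values were seen. The members and lists were chosen with earlier results of these data known. Alternatives were a stricter -log10 q of 10, peak enrichment, centring, another pseudocount, no filter, DESeq2 1.42.0, a replicate block and leaving out each replicate. Multi-mapped reads were discarded, so genes with near-identical copies are uncertain.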

Additional observations from a re-analysis of the deposited data

Results flagged for a closer look

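The change of H3K27ac with PlaB differed between the lines, by the interaction in limma (adjusted p of at most 0.05), at 208 domains in the higher direction (PlaB effect in Obox4 KO minus that in WT) and at 87 in the lower. Among the named domains, higher differences of log2 changes were found at Mir1191b (6.61 ± 0.48, SE, adjusted p = 3.18e-05), Padi4 (6.30 ± 0.85, 0.00141), Bcl9l (5.62 ± 1.44, 0.0383), Lefty2 (4.68 ± 1.09, 0.0259), Zc3h12a (4.38 ± 1.03, 0.0266), Bag3 (3.45 ± 0.47, 0.00153) and Plec (3.10 ± 0.84, 0.0472). Lower ones were found at Bach2 (-5.43 ± 0.22), Gja1 (-4.25 ± 0.61, 0.00202), the intronic domain of Fgfr2 and Htra1 (-3.78 ± 0.67, 0.00638), Cep112 (-3.36 ± 0.33, 1.79e-04), Tmem131 (-0.91 ± 0.17, 0.00796), Diaph1 (-0.83 ± 0.21, 0.0368), a domain with no gene at chr1:86307342-86312038 (-0.66 ± 0.13, 0.0105) and Gm12974 (-0.33 ± 0.06, 0.0101). At Bach2 the Obox4 KO PlaB- lists alone held H3K27ac peaks, and it entered the fit through them, so its p-value is left out. At Padi4 and Bcl9l Obox4 KO PlaB- was the only group with 0 bases in all 3 lists.

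The log2 fold change of RNA differed between double KO against Dux KO and Obox4 KO against WT, by the interaction in edgeR, at 14 domain genes in the higher and 14 in the lower direction. Obox4 RNA was near 0 in the Dux KO as well, and the deletion cannot be told apart from the line here. Among the named genes the differences of log2 fold changes, Dux KO background minus WT background, were 2.74 ± 0.34 for Lama1 (SE, adjusted p = 9.03e-04), 1.73 ± 0.27 for Socs3 (0.00432) and 1.48 ± 0.23 for Smad7 (0.00408). They were -1.67 ± 0.19 for Peg3 (6.34e-04) and -1.19 ± 0.18 for Klf10 (0.00313). Smad7 had 417, 443 and 694 CPM in double KO, against 280, 282 and 282 CPM in Dux KO cells, the opposite direction to the WT background. Groups of 3 samples were not searched for outlying values.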

How the results depend on the processing

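No named call changed its sign under any alternative tried. The interaction calls are not covered by this, because the interactions were fitted in the main setting only. With a minimum length of 3 kb or 5 kb the set held 5589 or 1565 domains and 5584 or 1776 genes. For H3K27ac in WT PlaB+ against WT PlaB- cells, 260 domains were called by the highest enrichment, 280 without the filter and 201 with peaks of a -log10 q of at least 10. For Obox4 KO PlaB- against WT PlaB- they were 497 by the highest enrichment and 143 without the filter, and for Obox4 KO PlaB+ against WT PlaB+ 543 with the stricter peaks. For H3K4me3 in Obox4 KO PlaB+ against Obox4 KO PlaB-, 1061 were called with each list centred, and in Obox4 KO PlaB+ against WT PlaB+ 2027 by the highest enrichment. The causes were not tested. Leaving out 1 library gave 228 to 559, 124 to 244, 237 to 422 and 625 to 945 calls for H3K27ac in WT PlaB+ against WT PlaB-, Obox4 KO PlaB- against WT PlaB-, Obox4 KO PlaB+ against Obox4 KO PlaB-, and Obox4 KO PlaB+ against WT PlaB+. For H3K4me3 it gave 258 to 702 against the untreated KO and 654 to 1013 against WT PlaB+, and for RNA 112 to 267 (Obox4 KO), 89 to 196 (double KO) and 31 to 51 (induction). DESeq2 called 174, 226 and 51 genes, and halved counts, an alternative chosen after seeing the data, 153 and 170. With a replicate block 24 induction genes were called (15 higher, 9 lower), and 341, 184, 322, 757, 579 and 943 domains and 148 and 146 genes in the other comparisons. The correlations of same-numbered samples ran from 0.0638 to 0.380 in the induction libraries and from -0.0591 to 0.108 in the other comparisons, and no comparison had every pair above 0.1, so the numbers were not used to pair samples. Of 113 named calls tried over the alternatives, 1677 outcomes kept the call, 158 lost it and 0 changed sign. Peak lists give no depth, so a base without a peak is not shown to lack the mark.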
